A study of Mus musculus with 7 samples.

Results

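Integrins are adhesion receptors made of 1 alpha and 1 beta subunit, and the genes described here are their subunits and the proteins that switch them on. The members were all rows of the count table whose symbol begins with Itga or Itgb, plus the talins Tln1 and Tln2, the kindlins Fermt1, Fermt2 and Fermt3, and vinculin (Vcl). The rule found 37 genes among 34305 rows: 18 alpha subunits, 9 beta subunits, 6 activators and 4 genes that match by name without being subunits (Itgb1bp1, Itgb1bp2, Itgb3bp and Itgbl1). The names alone chose them, not their values, although results of these data were known when the set was proposed.

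Inside a resting leukocyte most integrins are folded in a state of low affinity. Signals through the small GTPase RAP1 bring talin to the tail of the beta subunit, where a kindlin binds next to it, and the receptor opens; vinculin then ties talin to actin. In blood cells the subunit encoded by Itgb2 pairs with those of Itgal, Itgam, Itgax and Itgad in receptors for adhesion and phagocytosis, while Itga4 and Itga5 with Itgb1 hold progenitors to the marrow matrix and Itga2b with Itgb3 forms the fibrinogen receptor of platelets.

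The 7 RNA libraries came from mouse blood-forming stem and progenitor cells (HSPCs) in culture. In 3 libraries the cells overexpressed MN1, a transcriptional co-regulator and leukaemia oncogene; in 3 they overexpressed MN1-∆pQ, MN1 without its polyglutamine stretch (labelled MN1pQdel, written MN1-dpQ here); and 1 library was untransduced (noTD), although its source name in the labels reads transduced. All cells, untransduced ones included, were grown with stem cell factor and the cytokines IL-6 and IL-3, and the labels place RNA extraction 7 to 9 days into culture without saying which library was taken on which day. The sources used here do not give the promoter of the constructs, the mouse strain, the age or the number of animals. The p-values therefore describe only how far these libraries spread, which may be technical.

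Totals ran from 38210660 to 67728658 counts per library. Mn1 counts, which do not separate construct from endogenous gene, were at 287 to 314 CPM (counts scaled to a common library total) in MN1, at 691, 404 and 728 CPM in MN1-dpQ replicates 1 to 3 and at 33.6 CPM in noTD, so the groups differed in Mn1 level as well as in the stretch, and these cannot be told apart. All 9 HSPC markers listed, among them Kit, Cd34 and Ptprc, were counted in every library, at a summed 1980 to 5208 CPM. The gene Mpo alone supplied 4301 of the highest sum (MN1-dpQ replicate 2) and 324 of the lowest (MN1-dpQ replicate 3). These sums therefore do not compare HSPC content between libraries. In the comparison described below, Cd34 and Flt3 were called higher in MN1, Ptprc was called lower and the other 6 were not called. Neutrophil markers (12 of 12 genes counted everywhere) summed to 4308 to 7901 CPM in MN1, to 26572 to 36922 CPM in MN1-dpQ and to 38437 CPM in noTD, and mast cell markers to 1749 to 4073 CPM in MN1, to 15481, 3173 and 18450 CPM in MN1-dpQ replicates 1 to 3 and to 16074 CPM in noTD. MN1-dpQ replicate 2 thus stood apart from its group, and calls that change without it are named below.

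The comparison of 3 MN1 with 3 MN1-dpQ libraries asks which genes differ when the polyglutamine stretch is missing. The leukocyte integrin genes Itgam, Itgb2 and Itgax, the beta-like gene Itgb2l, the laminin receptor gene Itga7 and the activators Tln1, Vcl and Fermt2 were lower in MN1, and Itga9 was higher. A count filter passed 31 members: 1 was higher (3.23%) and 8 were lower (25.8%) at a Benjamini-Hochberg adjusted p under 0.05 in edgeR's quasi-likelihood test, against 6.08% of all 14808 genes tested higher and 11.1% lower. The groups did not overlap in 17 of the 31 (54.8%), against 43.6% of all genes tested. The median log2 fold change of the 31, MN1 over MN1-dpQ, was -0.69, and that of all genes was -0.010. Of the 31, Fermt2 reached the filter's count level in every MN1-dpQ library but not in every MN1 library, and Itga8 the reverse, so these genes had to differ to be tested at all. The labels state no pairing. With the replicate number as a block, a pairing read from these same data, 14 members were lower and 2 higher, against 17% and 13.7% of all genes. In bulk RNA, fewer cells of a type and less RNA per cell cannot be told apart.

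**Figure D1:**
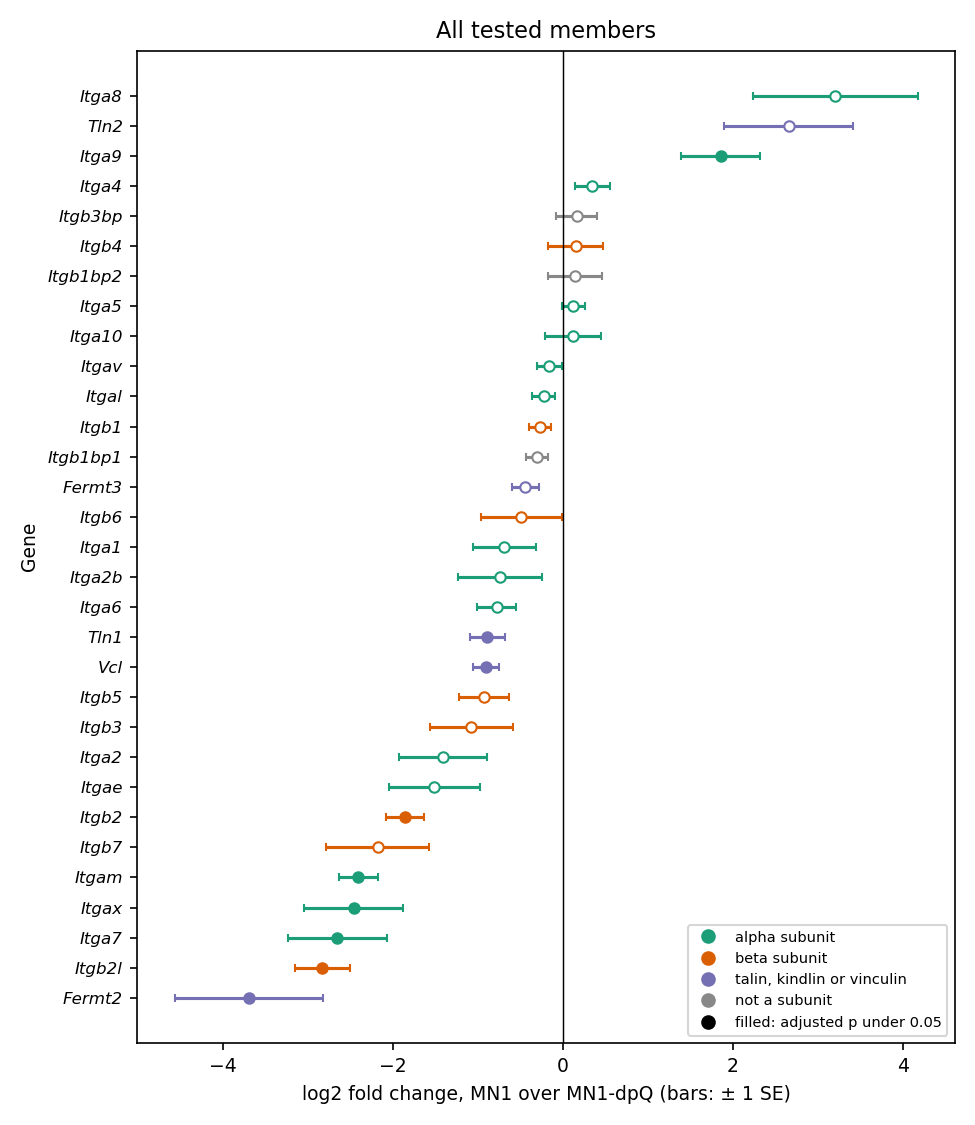
Log2 fold change of MN1 over MN1-dpQ (horizontal axis) with its standard error for the 31 members that passed the count filter, ordered by value; filled points have an adjusted p under 0.05. Filled points run from Fermt2 at -3.69 to Itga9 at 1.85, and most members lie left of zero.

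For the receptor known as CD11b/CD18, the genes of both chains were lower in MN1, and both calls held with any single library left out. Itgam, its alpha chain (chromosome 7, 128062640 to 128118491 on the plus strand of GRCm38), stood at 284, 222 and 211 CPM in MN1 replicates 1 to 3, at 1519, 914 and 1333 CPM in MN1-dpQ replicates 1 to 3 and at 1332 CPM in noTD. All MN1 libraries lay below all others, and noTD lay within the MN1-dpQ range. Its log2 fold change was -2.40 (SE 0.23, edgeR adjusted p = 0.00520). Itgb2 (chromosome 10, 77530252 to 77565708, plus strand), the shared beta chain, stood at 292, 220 and 271 CPM in MN1, at 1168, 687 and 956 CPM in MN1-dpQ and at 1079 CPM in noTD. Its log2 fold change was -1.86 (SE 0.22, edgeR adjusted p = 0.00579).

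Itgb2l (chromosome 16, 96422288 to 96443619, minus strand), a beta subunit relative of Itgb2 made mainly by neutrophils, stood at 49.8, 33.4 and 21.0 CPM in MN1, at 294, 221 and 219 CPM in MN1-dpQ and at 261 CPM in noTD. Between the groups its log2 fold change was -2.83 (SE 0.33, edgeR adjusted p = 0.00554). The deposited estimates of Itgb2 and Itgb2l were whole numbers in every library (tolerance 0.001), so neither held reads divided with another gene, whereas those of Itgam and Itgax were not whole. Itgam, Itgb2 and Itgb2l were the 3 members that kept their calls in each of 6 fits with 1 library left out, at log2 fold changes from -2.57 to -2.23, -2.02 to -1.66 and -3.17 to -2.56. These genes moved with the neutrophil marker list, of which 12 of 12 members were lower and none was at 0; the part of neutrophil content in the result was not tested.

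Itgax, the alpha chain CD11c of dendritic cells and macrophages, follows Itgam on chromosome 7 after a gap of 11.1 kb (128129547 to 128150657, plus strand). It stood at 1.37, 1.11 and 2.48 CPM in MN1, at 12.0, 3.13 and 11.9 CPM in MN1-dpQ and at 6.41 CPM in noTD. MN1-dpQ replicate 2 lay close to the highest MN1 library. For Itgax the log2 fold change was -2.46 (SE 0.59, edgeR adjusted p = 0.0353). Leave-outs of single libraries gave -2.86 to -2.18, and only the fit that dropped MN1-dpQ replicate 2 kept the call, 1 of 6. Eosinophil markers were low in that library too, at a summed 3401, 235 and 3647 CPM in MN1-dpQ replicates 1 to 3 against 13.3 to 21.6 CPM in MN1 and 3802 CPM in noTD; their part in the result was not tested. Itgad, the next gene on (gap 3.7 kb), was at 0.0274 to 0.225 CPM and was not tested. Of 6 dendritic cell markers tested with edgeR, 0 were lower in MN1 (also 0 at an unadjusted p under 0.05, with DESeq2 and with limma-voom, and 1 with the replicate block or without MN1-dpQ replicate 2) and 1, Flt3, was higher. Their sum was 96.8 to 131 CPM in MN1 against 27.8 to 39.0 in MN1-dpQ, but without Flt3, which is also an HSPC marker, it was 32.4, 20.4 and 38.0 CPM in MN1 against 37.7, 20.8 and 33.5 in MN1-dpQ. Of 12 markers of monocytes and macrophages, 6 were called lower with all libraries, beside 11.1% of all genes. Without MN1-dpQ replicate 2 the number was 6 as well, beside 21.3% of all genes. In that fit 2 of the 12 were called higher, beside 20.6% of all genes. The number called lower was 0 to 3 without any other single library, beside 2.49% to 4.51% of all genes. The part of dendritic cells or of macrophages in the Itgax result was not tested.

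Itgal (chromosome 7, 127296260 to 127335138, plus strand), the alpha chain of the lymphocyte receptor CD11a/CD18, did not follow its beta partner. It stood at 248, 205 and 223 CPM in MN1, at 295, 260 and 228 CPM in MN1-dpQ and at 287 CPM in noTD. The groups overlapped, and the log2 fold change was -0.22 (SE 0.13, edgeR adjusted p = 0.262). To set genes beside each other, CPM was divided by transcript length in kilobases. On that scale the ratio of Itgam to Itgal was 1.28, 1.21 and 1.06 in MN1, 5.76, 3.93 and 6.53 in MN1-dpQ and 5.19 in noTD. Itgam made up 53.9% ± 2.53 of the summed level of Itgal, Itgam, Itgax and Itgad in MN1 and 83.3% ± 3.41 in MN1-dpQ (SD, n = 3 each). The 4 alpha chains summed to 1.09 ± 0.106 times the level of Itgb2 in MN1 and 1.03 ± 0.0435 times in MN1-dpQ (SD, n = 3 each). The exact two-sided permutation p was 0.5, where 0.1 is the smallest possible, so the test cannot show that the ratio is unchanged.

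**Figure D2:**
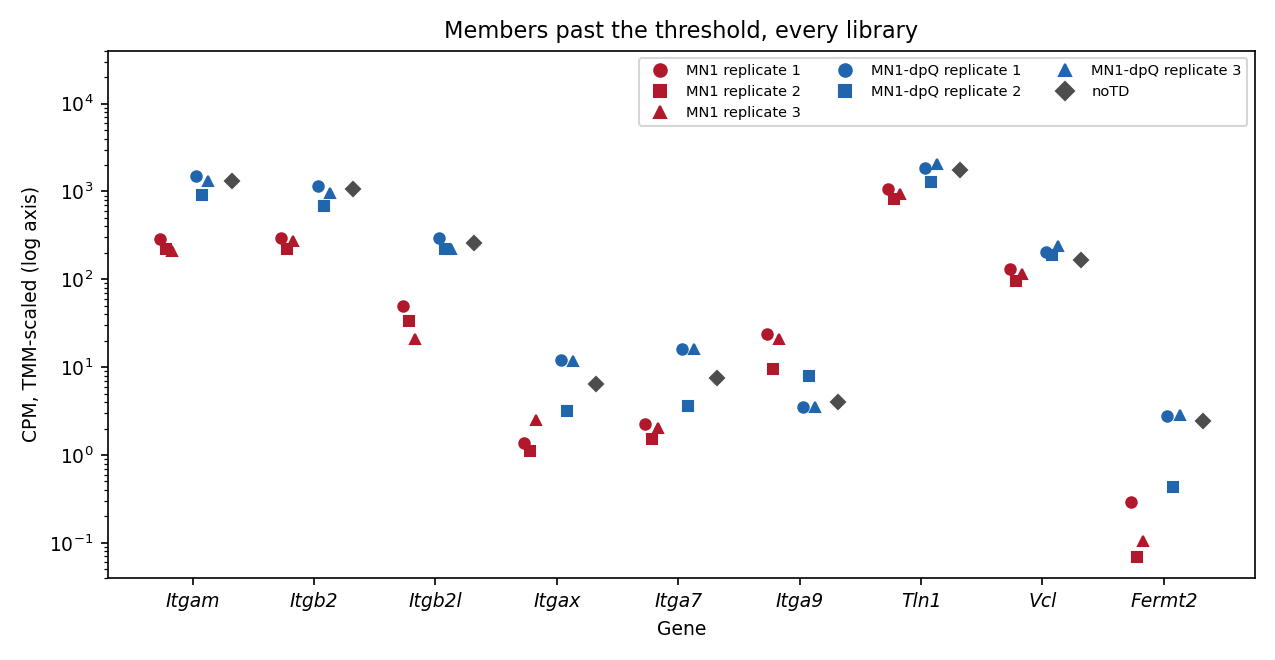
CPM on a log axis for the 9 members with an adjusted p under 0.05, with 1 point for each library (MN1 red, MN1-dpQ blue, noTD grey; symbol by replicate number). For every gene shown but Itgb2l, the blue square, MN1-dpQ replicate 2, is the blue point nearest to the red points.

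The promoters of Itgam, Itgax, Itgb2l and Tln1 are shown because these members, 2 neighbouring alpha chains, a beta chain and a talin, were all lower in MN1. Each is the 250 bases before the RefSeq start on GRCm38.p6, written 5′ to 3′ on the gene's strand, with GGAAGT and its complement ACTTCC, a core sequence bound by ETS factors such as PU.1, in capitals. Itgam lies at chr7:128062390-128062639 (plus strand), Itgax at chr7:128129300-128129549 (plus strand), Itgb2l at chr16:96443615-96443864 (minus strand) and Tln1 at chr4:43562584-43562833 (minus strand).
Itgam: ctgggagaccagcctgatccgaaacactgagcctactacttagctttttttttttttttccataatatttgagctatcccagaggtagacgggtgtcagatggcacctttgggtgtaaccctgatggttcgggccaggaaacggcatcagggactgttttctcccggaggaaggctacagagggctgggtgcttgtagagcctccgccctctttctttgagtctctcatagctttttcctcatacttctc
Itgax: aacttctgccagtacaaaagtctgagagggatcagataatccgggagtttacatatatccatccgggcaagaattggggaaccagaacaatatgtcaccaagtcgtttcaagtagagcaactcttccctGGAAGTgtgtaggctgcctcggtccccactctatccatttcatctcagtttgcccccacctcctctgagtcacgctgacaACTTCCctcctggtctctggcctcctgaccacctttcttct
Itgb2l: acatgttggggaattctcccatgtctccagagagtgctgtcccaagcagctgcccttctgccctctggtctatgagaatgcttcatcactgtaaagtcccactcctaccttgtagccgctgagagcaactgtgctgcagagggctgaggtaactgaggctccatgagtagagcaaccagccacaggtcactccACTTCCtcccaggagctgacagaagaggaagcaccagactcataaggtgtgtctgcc
Tln1: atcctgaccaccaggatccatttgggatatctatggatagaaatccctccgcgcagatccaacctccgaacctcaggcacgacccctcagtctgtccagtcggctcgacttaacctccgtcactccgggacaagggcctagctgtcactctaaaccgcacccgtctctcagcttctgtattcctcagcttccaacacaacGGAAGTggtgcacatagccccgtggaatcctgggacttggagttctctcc

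RefSeq entries were found for 27 of the 37 members, 29 windows in all, each searched over 300 bases (250 before the start and 50 after it) on both strands. GGAAGT was present in 3 of 6 windows of members lower in MN1 (Itgax, Itgb2l and Tln1, not Itgam, Vcl or Fermt2) and in 23.8% of 32851 windows of all genes. TGNGGT, which RUNX factors bind, was present in 3 of the 6 and in 45.8% of all windows. TTNNGNAA, a C/EBP pattern, was present in 5 of the 6 (all but Tln1) and in 40.7%. TGACAG, which MEIS and other TALE factors bind, was present in 2 of the 6 (Tln1 and Itgb2l) and in 19.2%. Over all 29 windows of members, called lower or not, GGAAGT was present in 12, TGNGGT in 15, TTNNGNAA in 11 and TGACAG in 8. No match of one pattern overlapped a match of another in the windows of the 4 promoters shown. A match describes these letters and not a bound site.

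The remaining beta subunits differed in size of change and in spread. Itgb1, the most widely used beta chain, stood at 287, 262 and 289 CPM in MN1, at 352, 287 and 363 CPM in MN1-dpQ and at 332 CPM in noTD. MN1-dpQ replicate 2 was within the span of the MN1 libraries, and the log2 fold change was -0.27 (SE 0.13, edgeR adjusted p = 0.167). Itgb7, which pairs with Itga4 for homing to the gut and with Itgae, stood at 49.5, 23.3 and 50.4 CPM in MN1, at 237, 53.1 and 260 CPM in MN1-dpQ and at 254 CPM in noTD. The groups did not overlap, but MN1-dpQ replicate 2 was just above the highest MN1 library. Its log2 fold change was -2.17 (SE 0.61, edgeR adjusted p = 0.0525, and 0.0148 with the replicate block), and the mast cell marker sums given above were low in the same library; their part was not tested.

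Itgb3, the beta chain of the fibrinogen and vitronectin receptors, stood at 174, 68.3 and 159 CPM in MN1, at 320, 128 and 390 CPM in MN1-dpQ and at 152 CPM in noTD. Replicate 2 was the lowest library in each transduced group. Itgb3 had a log2 fold change of -1.08 (SE 0.49, edgeR adjusted p = 0.154, and 0.0114 with the replicate block). Itgb5, a vitronectin receptor chain, stood at 9.71, 10.3 and 10.4 CPM in MN1, at 19.5, 26.3 and 11.6 CPM in MN1-dpQ and at 24.6 CPM in noTD. Its lowest MN1-dpQ library was replicate 3, unlike Itgb7 and Itgb3, and the log2 fold change was -0.93 (SE 0.29, edgeR adjusted p = 0.0694). Itgb4 and Itgb6, mainly epithelial chains, had group means of 0.612 to 0.986 CPM, and Itgb8 had at most 0.0424 CPM.

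Per kilobase of transcript, the make-up of the pool of Itgb1 to Itgb8, which leaves out Itgb2l, differed between the groups. Itgb2 supplied 43.6, 44.5 and 42.1% of the summed level in MN1 replicates 1 to 3, 61.9, 64.9 and 55.0% in MN1-dpQ and 62.7% in noTD. Itgb1 supplied 33.4, 41.2 and 34.9% in MN1, 14.5, 21.1 and 16.3% in MN1-dpQ and 15.0% in noTD. Neither share overlapped between the transduced groups. For both the exact two-sided permutation p was 0.1, the smallest that 3 against 3 libraries can give, or 0.183 adjusted over the 11 shares and ratios computed. With Itgb2l counted in the pool, a choice made after seeing the data, the Itgb2 share was 40.2, 41.4 and 40.6% in MN1 and 52.6, 52.5 and 48.1% in MN1-dpQ, a gap of 10.4 instead of 17.2 percentage points. Itgb2l itself then supplied 7.74, 7.07 and 3.55% in MN1 and 14.9, 19.0 and 12.5% in MN1-dpQ. The share of Itgb7 in Itgb1 to Itgb8 was 8.19, 5.20 and 8.67% in MN1 and 13.9, 5.54 and 16.5% in MN1-dpQ, with an exact permutation p of 0.3 that ignores the pairing. It was higher in MN1-dpQ in 3 of 3 numbered pairs, or in 2 of 3 with Itgb2l in the pool.

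**Figure D3:**
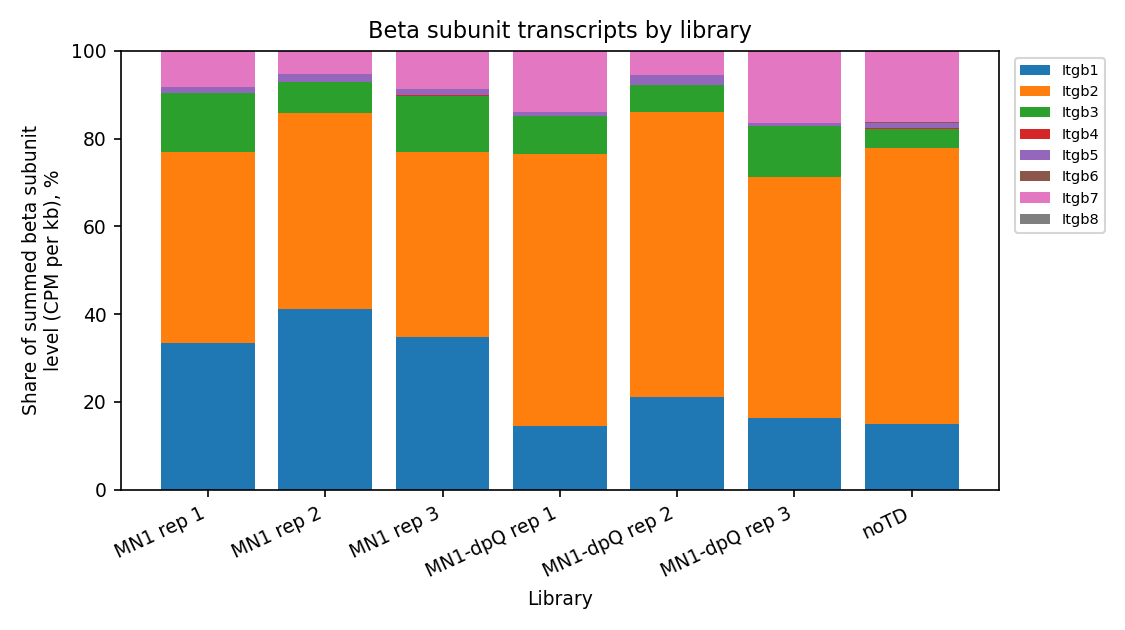
Share of each beta subunit, in percent of the summed CPM per kilobase of Itgb1 to Itgb8, in each of the 7 libraries. The Itgb1 segment is 33.4 to 41.2% in the MN1 libraries and 14.5 to 21.1% in the others.

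Among the alpha chains, Itga9 was the member called higher in MN1. Itga9 (chromosome 9, 118606690 to 118901003, plus strand), which pairs with Itgb1 and binds tenascin and osteopontin, stood at 23.9, 9.63 and 20.9 CPM in MN1, at 3.50, 7.96 and 3.48 CPM in MN1-dpQ and at 4.00 CPM in noTD. The replicate 2 libraries were the lowest of MN1 and the highest of MN1-dpQ. For Itga9 the log2 fold change was 1.85 (SE 0.47, edgeR adjusted p = 0.0406, and 0.0699 with the replicate block). With a library left out it ran from 1.61 to 2.38 and kept its call in 1 of 6 fits, that lacking MN1-dpQ replicate 2. Itga8, another matrix receptor chain that pairs with Itgb1, was named after its values were seen. It stood at 5.07, 13.6 and 9.99 CPM in MN1, at 0.553, 2.43 and 0.0994 CPM in MN1-dpQ and at 0.466 CPM in noTD. Its log2 fold change of 3.20 (SE 0.97) had an edgeR adjusted p of 0.0640, and of 0.0336 with the replicate block.

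Itga7 (chromosome 10, 128933818 to 128958282, plus strand), a laminin receptor chain known from muscle, stood at 2.24, 1.50 and 2.04 CPM in MN1, at 16.2, 3.60 and 16.2 CPM in MN1-dpQ and at 7.59 CPM in noTD. Itga7 differed by a log2 fold change of -2.65 (SE 0.58, edgeR adjusted p = 0.0283). With a library left out it ran from -3.06 to -2.36 and again kept its call in 1 of 6 fits, that lacking MN1-dpQ replicate 2. Itga6, the more abundant laminin receptor chain, stood at 89.4, 72.6 and 73.7 CPM in MN1, at 157, 90.9 and 153 CPM in MN1-dpQ and at 128 CPM in noTD. The groups did not overlap, and its log2 fold change was -0.78 (SE 0.23, edgeR adjusted p = 0.0572, and 0.0336 with the replicate block).

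Itga2b, which encodes CD41 of platelets, megakaryocytes and early progenitors, stood at 450, 165 and 339 CPM in MN1, at 699, 235 and 638 CPM in MN1-dpQ and at 624 CPM in noTD. Replicate 2 was lowest in both transduced groups and the groups overlapped. Itga2b had a log2 fold change of -0.74 (SE 0.49, edgeR adjusted p = 0.305, and 0.0186 with the replicate block). Megakaryocyte and platelet markers followed the same order, with summed levels of 289, 78.1 and 197 CPM in MN1, of 466, 176 and 455 CPM in MN1-dpQ and of 370 CPM in noTD. Of the 10, 1 was called lower in edgeR, near the 11.1% of all genes. The number was 5 with the replicate block, with DESeq2 or without MN1-dpQ replicate 2, against 17%, 16.8% and 21.3% of all genes. It was 0 without any other single library, against 2.49% to 4.51%. The part of these cells was not tested. The collagen receptor chains Itga2 and Itga1 are neighbours on chromosome 13 (gap 21.0 kb) but had different profiles. Itga2 stood at 7.85, 1.97 and 5.05 CPM in MN1 and at 14.7, 8.08 and 16.3 CPM in MN1-dpQ (adjusted p = 0.0988, and 0.0217 with the replicate block, edgeR). Itga1 stood at 6.22, 6.11 and 6.72 CPM in MN1 and at 7.42, 16.5 and 6.56 CPM in MN1-dpQ, where replicate 2 was the highest library.

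The matrix receptor chains of progenitors showed no difference past the threshold. Itga4 stood at 201, 197 and 221 CPM in MN1, at 131, 218 and 135 CPM in MN1-dpQ and at 95.4 CPM in noTD. MN1-dpQ replicate 2 lay among the MN1 libraries, and the log2 fold change was 0.35 (SE 0.20, edgeR adjusted p = 0.252) with it and 0.69 (edgeR adjusted p = 0.00848) without the replicate 2 pair. Itga5, the fibronectin receptor chain, stood at 57.8, 53.7 and 66.5 CPM in MN1, at 46.5, 60.1 and 55.6 CPM in MN1-dpQ and at 57.6 CPM in noTD (log2 fold change 0.12, SE 0.14). Itgav stood at 36.5, 38.6 and 44.9 CPM in MN1, at 42.0, 39.5 and 51.2 CPM in MN1-dpQ and at 37.8 CPM in noTD (log2 fold change -0.16, SE 0.15; 0.049 with library totals alone). Itgae, the chain that binds E-cadherin, had means of 1.05 and 2.95 CPM in MN1 and MN1-dpQ (edgeR adjusted p = 0.0899), Itga10 had means of 1.13 and 1.04 CPM, and Itga3 and Itga11 were at or below 0.318 CPM everywhere and were not tested.

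Of the activators, Tln1, Vcl and Fermt2 were lower in MN1. Tln1 (chromosome 4, 43531519 to 43562691, minus strand), the talin of blood cells, had the highest CPM of all members, at 1076, 825 and 930 in MN1, at 1849, 1286 and 2067 in MN1-dpQ and at 1770 in noTD. All MN1 libraries lay below all others. For Tln1 the log2 fold change was -0.89 (SE 0.21, edgeR adjusted p = 0.0324). It ran from -1.05 to -0.74 in fits with a library left out and was called in 1 of these 6, that lacking MN1-dpQ replicate 2. Vcl (chromosome 14, 20929398 to 21033676, plus strand) stood at 132, 96.1 and 115 CPM in MN1, at 204, 190 and 242 CPM in MN1-dpQ and at 165 CPM in noTD. Its log2 fold change was -0.90 (SE 0.16, edgeR adjusted p = 0.0154), called in 3 of 6 such fits (range -1.01 to -0.79) but not without MN1 replicate 2, MN1 replicate 3 or MN1-dpQ replicate 1, with adjusted p up to 0.0717.

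Tln2, the second talin, which is best known from muscle and brain, went the other way. It stood at 28.1, 21.7 and 21.4 CPM in MN1, at 2.08, 8.29 and 0.845 CPM in MN1-dpQ and at 2.41 CPM in noTD. All MN1 libraries lay above all others. The log2 fold change of 2.66 (SE 0.76) had an edgeR adjusted p of 0.0549, and of 0.0350 with the replicate block. Per kilobase Tln2 remained a small share of talin transcripts, at 1.78, 1.79 and 1.57% in MN1, 0.0778, 0.444 and 0.0283% in MN1-dpQ and 0.0942% in noTD (exact permutation p = 0.1, the smallest possible).

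Fermt3, the kindlin of blood cells, did not pass the threshold without the block. It stood at 428, 311 and 399 CPM in MN1, at 539, 441 and 549 CPM in MN1-dpQ and at 523 CPM in noTD. The groups did not overlap, and the log2 fold change was -0.44 (SE 0.16, edgeR adjusted p = 0.0979, and 0.0236 with the replicate block). Fermt2 (chromosome 14, 45458795 to 45530118, minus strand), the kindlin of most other tissues, was near the detection limit, with 12, 3 and 5 counts in MN1, 170, 21 and 114 in MN1-dpQ and 90 in noTD, or 0.293, 0.0694 and 0.106 CPM in MN1 against 2.77, 0.430 and 2.83 CPM in MN1-dpQ. Its log2 fold change was -3.69 (SE 0.87, edgeR adjusted p = 0.0343), and it was called in 1 of 6 fits with a library left out, that lacking MN1-dpQ replicate 2 (range -4.48 to -3.34). Fermt1, an epithelial kindlin, was at or below 0.596 CPM and was not tested. Markers of fibroblasts and stroma, a cell type that uses Fermt2, summed to 12.2 to 17.6 and 10.5 to 15.3 CPM in MN1 and MN1-dpQ, with Col3a1, Dcn, Lum and Pdgfra at 0 in at least 1 library; their part was not tested.

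Per kilobase, the order of the members also differed. In MN1 the highest were Fermt3 (147 ± 23.5 CPM per kb), Tln1 (112 ± 15.0), Itga2b (92.4 ± 41.8), Itgb2 (87.9 ± 12.4) and Itgb1 (73.2 ± 3.92), and neighbours from Tln1 to Itgb2 differed by less than the larger SD of the pair. In MN1-dpQ they were Itgb2 (316 ± 81.0 CPM per kb), Itgam (270.0 ± 66.6), Tln1 (207 ± 48.0), Fermt3 (197 ± 23.1) and Itga2b (152 ± 73.4), where each neighbouring pair differed by less than the larger of its SDs (SD, n = 3 throughout). The ratio of Tln1 to Fermt3 was 0.775, 0.818 and 0.719 in MN1 and 1.06, 0.899 and 1.16 in MN1-dpQ (exact permutation p = 0.1, the smallest possible).

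The 4 name matches do other work, and of the 3 tested with edgeR 0 were called, as with DESeq2, with limma-voom and at an unadjusted p under 0.05, while without MN1-dpQ replicate 2 Itgb1bp1 was called lower. Itgb1bp1, which encodes ICAP1, an inhibitor that competes with talin for the beta tail, stood at 28.6, 30.2 and 28.8 CPM in MN1, at 37.7, 31.3 and 38.4 CPM in MN1-dpQ and at 33.7 CPM in noTD (log2 fold change -0.31, SE 0.13, edgeR adjusted p = 0.136). Itgb3bp, a centromere protein gene, had means of 5.17 and 4.59 CPM in MN1 and MN1-dpQ. Itgb1bp2, which encodes the muscle protein melusin, had means of 0.449 and 0.405 CPM, and Itgbl1 had no counts in any library.

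MN1-dpQ replicate 2 was the MN1-dpQ library nearest to the MN1 mean for 24 of the 31 members that passed the filter, and it lay inside the MN1 range for 11. Without it 17 members were lower and 4 higher, against 21.3% and 20.6% of all genes, and leaving out any other single library left 3 to 5 lower and 0 higher, against 2.49% to 4.51% and 0.631% to 1.8% of all genes. The 17 were the 8 called with all libraries, Fermt1, which passed the count filter in that fit, and Fermt3, Itga2, Itga6, Itgae, Itgb1, Itgb1bp1, Itgb3 and Itgb7. On the log2 scale and without this library Itgb1 was at -0.35 (edgeR adjusted p = 0.0271), Itgb1bp1 at -0.38 (0.0323), Itga6 at -0.97 (0.00213) and Itgae at -1.89 (0.00414). Fermt3 was at -0.52 (0.0355), Itga2 at -1.64 (0.0423), Itgb3 at -1.40 (0.0262) and Itgb7 at -2.59 (0.00217). The 4 higher were Itga4 at 0.64 (0.00391), Itga8 at 4.78 (0.00461), Itga9 at 2.38 (0.00645) and Tln2 at 3.99 (0.00142).

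The untransduced library gives the background, with no test since it is 1 library. A member was counted where noTD lay outside the range of the group's 3 libraries and at least 2-fold from their mean on log2 CPM. Against MN1, 28 members had enough counts, of which 12 were higher in noTD and 4 lower (Itga4, Itga8, Itga9 and Tln2), against 14.6% and 9.29% of all genes. The 12 were Fermt2, Itga2, Itga2b, Itga7, Itgae, Itgam, Itgax, Itgb2, Itgb2l, Itgb5, Itgb6 and Itgb7. Of these, Fermt2, Itgae, Itgax and Itgb6 reached the required counts in noTD but not in every MN1 library. Itgax missed them narrowly, with 56, 48 and 117 counts in MN1. Itga8 reached them in every MN1 library but not in noTD. The choice of these 5 members thus favoured a difference in the direction seen. Among the other 8 higher and 3 lower, the differences were largest for Itgb2l (3.00) and Itgb7 (2.71) upward and for Tln2 (-3.26) downward. Against MN1-dpQ, 27 members had enough counts and 0 were counted in either direction, against 2.52% and 0.352% of all genes. The differences there ran from 0.83 for Itgb6 to -0.73 for Itgb3. Fermt2, Itgb6 and Tln2 reached the required counts in noTD but not in every MN1-dpQ library, so their choice favoured higher values in noTD. Among the others the highest difference was 0.78, for Itgb7. Both comparisons use the same noTD library.

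**Figure D4:**
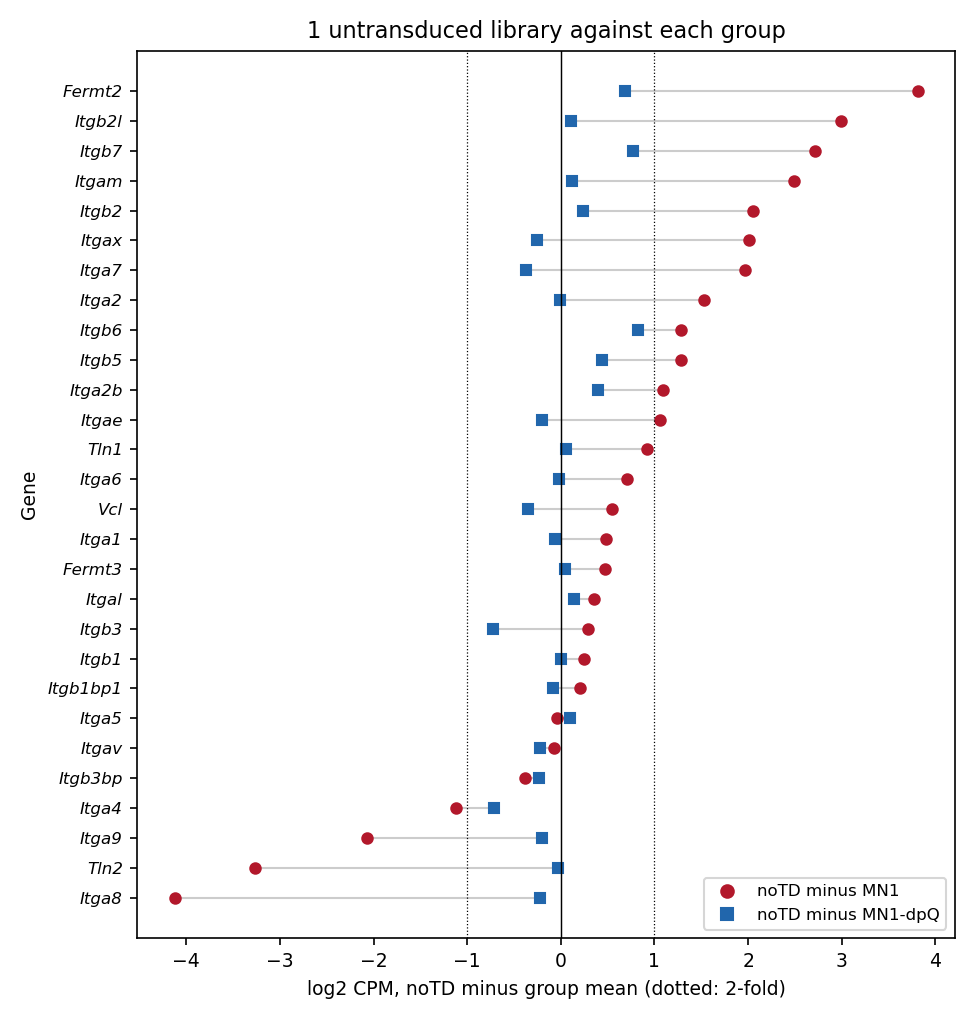
Log2 CPM of the noTD library minus the mean of the MN1 libraries (red circles) and minus the mean of the MN1-dpQ libraries (blue squares) for the members with enough counts against MN1; dotted lines mark 2-fold. Red circles reach from -4.12 (Itga8) to 3.81 (Fermt2), while the blue squares stay between the dotted lines.

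The wider pathway was read from 5 lists of other genes. Of 17 tested genes of inside-out signalling, which activates integrins, 10 were lower (58.8%) and 0 higher in MN1 (median log2 fold change -0.72), beside the 11.1% and 6.08% of all genes. At an unadjusted p under 0.05, 1 was higher in edgeR, as with DESeq2, and 0 with limma-voom. Plcb2, a phospholipase behind chemoattractant receptors, averaged 139 ± 12.9 and 317 ± 50.4 CPM in MN1 and MN1-dpQ, the kinase gene Prkcd at 184 ± 9.07 and 399 ± 81.8 CPM, and Rassf5, whose product RAPL links RAP1 to leukocyte integrins, at 77.7 ± 7.82 and 150 ± 30.8 CPM (SD, n = 3 each). Inhibitors were lower as well, in 4 of 12 (33.3%) with 0 higher and a median of -0.75 (1 higher at an unadjusted p under 0.05 in edgeR and with DESeq2, 0 with limma-voom). Flna, whose product filamin competes with talin for the beta tail, averaged 709 ± 25.7 and 1648 ± 117 CPM in the same order, a log2 fold change of -1.23 (SE 0.11, edgeR adjusted p = 0.00497). The RAP1 inactivators Rap1gap2 (-1.74, SE 0.33) and Sipa1 (-0.80, SE 0.10) were lower on the log2 scale too.

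Of 29 genes that act downstream of bound integrins, 11 were lower (37.9%) and 1 was higher (3.45%), beside 11.1% and 6.08% of all genes. The median of the 29 was -0.42. The SRC family kinase gene Fgr (19.2 ± 3.38 against 101 ± 21.9 CPM), whose product carries signals of Itgb2 receptors in neutrophils, and the actin crosslinker gene Actn1 (74.6 ± 8.46 against 259 ± 39.6 CPM) were among those lower (SD, n = 3 each). Tns1, which encodes the adhesion protein tensin, was the 1 higher, at 47.6, 24.4 and 53.7 CPM in MN1 against 13.4, 13.0 and 14.9 CPM in MN1-dpQ. Membrane partners were lower in 6 of 10 (60.0%) and higher in 0 (median -1.06; 0 higher also at an unadjusted p under 0.05 in edgeR, with DESeq2 and with limma-voom, and 1 without MN1-dpQ replicate 2), led among those named by the tetraspanin genes Cd9 (-1.99, SE 0.54) and Cd63 (-1.70, SE 0.44) and by the urokinase receptor gene Plaur (-1.63, SE 0.21).

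Of 18 integrin ligands tested, 3 were higher and 3 lower (16.7% each, median -0.23), beside 6.08% higher and 11.1% lower of all genes. Spp1, which encodes osteopontin, a ligand of the Itga9, Itga4 and Itgav receptors, was higher, at 652, 396 and 912 CPM in MN1, at 353, 252 and 251 CPM in MN1-dpQ and at 214 CPM in noTD (log2 fold change 1.18, SE 0.31, edgeR adjusted p = 0.0438). Cdh1, the E-cadherin gene and ligand of the Itgae receptor, was lower at 9.74 ± 5.37 against 91.4 ± 63.4 CPM, with 19.9 CPM in MN1-dpQ replicate 2. Thbs1, the thrombospondin gene, was lower at 820 ± 96.6 against 2297 ± 878 CPM, and Fn1, the fibronectin gene, at 5.29 ± 0.658 against 11.6 ± 4.15 CPM (SD, n = 3 each). With the replicate block Fn1 was not called (edgeR adjusted p = 0.0636), and with library totals alone neither Fn1 (0.0763) nor Cd9 (0.0529) was. With single libraries left out, Plcb2, Flna, Sipa1, Fgr, Actn1 and Plaur were called in 6 of 6 fits and Prkcd in 3. Rap1gap2, Tns1, Spp1 and Thbs1 were called in 2, and Rassf5, Cdh1, Fn1, Cd9 and Cd63 in 1, which lacked MN1-dpQ replicate 2 or, for Fn1, MN1-dpQ replicate 3. Leaving out any library but MN1-dpQ replicate 2 reduced the genes called lower to 2 to 3 of 17 for inside-out signalling, 2 to 3 of 12 for inhibitors, 6 to 8 of 29 for downstream genes, 2 of 10 for membrane partners and 0 to 2 of 18 for ligands. The same fits reduced the share of all genes called lower from 11.1% to 2.49% to 4.51%.

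**Figure D5:**
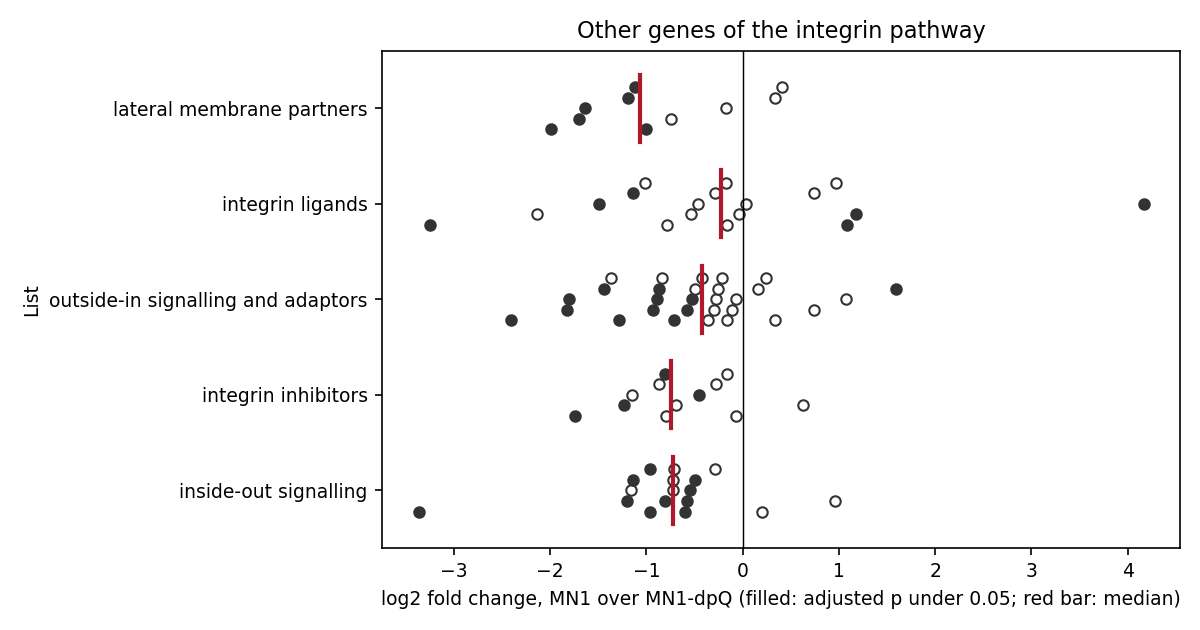
Log2 fold change of MN1 over MN1-dpQ for each tested gene of the 5 pathway lists; filled points have an adjusted p under 0.05 and the red bar is the list median. Medians run from -1.06 for membrane partners to -0.23 for ligands.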

How the data were processed

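Poly(A) RNA of 7 mouse HSPC libraries was read from both ends at 150 bases, per the labels' protocols. The authors deposited estimated counts per gene symbol, not normalised, in 1 table of 34305 rows; kallisto, DESeq2 and GRCm38 are named in the submitters' processing notes, and the sources used here do not give versions, transcript index or strand setting. Groups and replicate numbers came from the sample titles.

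Estimated counts were rounded, filtered with filterByExpr and scaled by TMM; 3 MN1 and 3 MN1-dpQ libraries were compared by the quasi-likelihood test of edgeR 4.0.16 (under R 4.3.3, group as the only term, Benjamini-Hochberg adjustment over 14808 genes, threshold 0.05). Each standard error is the absolute log2 fold change over the root of the F statistic. For CPM, TMM factors were computed over all 7 libraries. noTD was described by log2 CPM with a prior count of 2, among genes with at least 50 counts in noTD or in every library of the group. Coordinates and transcript lengths (longest principal coding transcript) come from GENCODE M21 on GRCm38, promoters from RefSeq on GRCm38.p6. The pipeline was tested on simulated counts.

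Replicates of a group differed far beyond sampling noise (chi-square per gene 43.3 to 352). Libraries of the same number deviated from their group means together (correlations 0.367, 0.258 and 0.319). Those of different numbers were at -0.282 to -0.0599. Deviations from a group mean cancel within the group, so positive values for equal numbers push the others towards negative ones, which add no support. The pairing was thus read from these data and not from the labels. It enters only the counts of numbered pairs and the fit with the number as a block. That fit is given where it changes a call. Alternatives were DESeq2 (version 1.42.0), limma-voom (limma 3.58.1), other scalings and filters, the block, and left-out libraries.

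The members and gene lists were chosen with earlier results of these data known. Named with every library's value were members past the threshold or averaging at least 10 CPM; Itga2b, Itgb3, Itga2, Itga1, Fermt1, Fermt2, Tln2, Itgb1bp1 and Itgb3bp were named whatever their values. Each pathway list gave up to 3 called genes per direction, by size of fold change among genes averaging at least 5 CPM; a single gene so chosen is not reported here. Of the list entries, 3 had no row under that symbol. Because no strand setting is stated, reads of overlapping or antisense genes may be mixed; Itgam overlaps a predicted gene on its own strand in GENCODE M21.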

Additional observations from a re-analysis of the deposited data

How the results depend on the processing

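The count of members lower in MN1 (8) was 13 with DESeq2, 14 with the replicate block, 5 with limma-voom and 16 without the replicate 2 pair, and between 3 and 17 when single libraries were left out. In the same order 16.8%, 17%, 8.95% and 17.4% of all genes were lower, and 2.49% to 21.3% with single libraries left out. The count higher in MN1 (1) was 3 with DESeq2, 2 with library totals alone, 3 with no filter, 2 with the replicate block, 3 with limma-voom and 4 without the replicate 2 pair, and between 0 and 4 when single libraries were left out. In the same order 13.1%, 12.5%, 3.75%, 13.7%, 6.58% and 17.4% of all genes were higher, and 0.631% to 20.6% with single libraries left out. Over all genes, 901 were higher in MN1, and 1906 with DESeq2, 1847 with library totals alone, 2022 with the replicate block, 2630 without the pair and 95 to 3146 with single libraries left out; 1643 were lower, and 2523 with the block, 2617 without the pair and 378 to 3248 with single libraries left out. Under library totals alone the median of all log2 fold changes was 0.19, with 1847 higher and 1140 lower genes. The block dropped the call of Itga9 and added Fermt3, Itga2, Itga2b, Itga6, Itga8, Itgb3, Itgb7 and Tln2, and it also dropped Fn1 among the pathway genes named, as library totals alone dropped Fn1 and Cd9; limma-voom dropped Fermt2, Itga7 and Itgax, and the stricter filter left Fermt2 untested. Members with no called difference changed sign as follows: Itgav was at 0.049 with library totals alone and Itgb1bp2 at -0.031 without the pair, and with single MN1 libraries left out Itga10 ran from -0.17 to 0.30, Itgb1bp2 from -0.076 to 0.27, Itgb3bp from -0.012 to 0.30 and Itgb4 from -0.10 to 0.32. Members counted against noTD ran from 8 to 13 higher than MN1, stayed at 4 lower, and against MN1-dpQ were 0 to 1 higher and 0 to 2 lower when single libraries were dropped. With 1 library left out an arm of 2 remains and fewer samples enter the fit; for the other changes the cause was not tested. Leave-outs for the shares and ratios, and Itgb2l in the beta pool, were chosen after seeing the data. Depth limits Fermt2 and the 6 members below the count filter.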
